A study of Mus musculus with 101 samples.

Results

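This report is about 10 genes, Trp53, which encodes p53, and 9 genes that p53 is known to switch on after DNA injury: Mdm2, Cdkn1a, Ccng1, Phlda3, Sesn2, Ei24, Gadd45a, Zmat3 and Trp53inp1. They were chosen by name, with earlier results of these data known, and all 10 were found among the 15423 genes of the deposited table. The libraries hold RNA of primordial germ cells, the embryonic precursors of eggs and sperm, sorted from gonads at embryonic day 13.5 by the green fluorescence of a Pou5f1-driven transgene in OG2 mice. There were 48 female and 53 male embryos, from 56 dams as read from the embryo numbers. The founder dams had been dosed by mouth with benzo[a]pyrene, a combustion product that binds DNA after it is metabolized, with daily amounts of 0.033, 0.2 and 2 mg/kg-day in separate groups, or with the sesame oil vehicle. F1 embryos were exposed in the womb, F2 embryos descend from mice whose germ cells were exposed, and F3 embryos come from the generation after; dosing lasted longer for F2 and F3 than for F1. In F2 and F3 the embryo number was taken to name the mother, who was not the dosed founder. The labels do not give the founder, so embryos of different dams may share a founder, which no test here took into account. From vehicle to the highest dose, females numbered 5, 2, 5 and 5 in F1, 6, 3, 3 and 3 in F2, and 6, 4, 2 and 4 in F3. Males numbered 5, 2, 6 and 8 in F1, 6, 3, 3 and 3 in F2, and 6, 4, 4 and 3 in F3.

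The protein p53 is a transcription factor that is kept at a low level by Mdm2, an enzyme that marks it for degradation and is itself a p53 target. When DNA is damaged, kinases such as Atm and Atr free p53 from Mdm2, and p53 then raises the transcription of genes for cell cycle arrest, repair and cell death. This control acts largely on the protein, which was not measured here. Germ cells at this stage enter meiosis in females and stop dividing in males.

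Values are normalized counts, the authors' read counts per gene scaled between libraries. They summed to between 758171 and 1594837 per library, with a median of 978201. Where whole reads could be recovered from these values, in 99 libraries, depth ran from 5004382 to 87240533 reads with a median of 7789673. Depth here is the sum of reads over the deposited genes. It is not the number of uniquely mapped reads, for which the paper gives a higher minimum. The 11 deepest libraries, all F1, held 21247642 reads or more and are called deep here. Each gene had reads in every one of these 99 libraries, but Sesn2 and Zmat3 rested on a median of 25 reads and Gadd45a on as few as 5. The library of the F3 male D1390.5, exposed to 0.2 mg/kg-day, went against its sex label in part. Stra8, a gene that starts meiosis, stood at 14.7 in it, the highest of the males, whose median was 1.40, although the next male had 14.1. The females D3501.3 and E0103.2 were lower, at 9.12 and 11.4. Lefty2, a gene of male germ cells, stood at 33.8, below the 47.9 to 143 of the other 52 males and above every female. Results that rest on this library are given with and without it.

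The cells carried germ cell markers. Of the 7 on the list, vehicle males had more of 3 and vehicle females more of another 3. All 7 were above 0 in the median vehicle embryo of each sex, with Dppa3 the most abundant at a mean of 1612 in females and 2413 in males, and the list summed to between 2912 and 5011 in vehicle females and between 2638 and 5619 in vehicle males. All 5 meiosis genes were higher in females, led by Sycp3 at a mean of 702 in females and 193 in males, with sums of 483 to 5197 and 148 to 820. All 3 measured genes of male germ cell fate were higher in males, led by Lefty2 at 0.244 and 85.8, with sums of 0.0899 to 1.73 and 70.9 to 151.

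Genes of somatic gonad cells were also present. All 6 Sertoli cell genes were higher in males, and their sum ran from 11.6 to 35.95 in vehicle females and from 64.8 to 1189 in vehicle males; Cst9 led with a mean of 410 in males and 0.0865 in females, where Sox9, Amh, Dhh and Cst9 had a median of 0. Of the pregranulosa genes, 5 of 6 were in the table and 1 of the 2 tested, Wnt4, the most abundant at a mean of 1.54 and 0.474, was higher in females; the sums were 1.47 to 8.42 and 0.705 to 2.66. Of 3 fetal Leydig genes tested, Hsd3b1, at a mean of 0.389 and 4.15, was higher in males and Insl3 higher in females, Cyp11a1 and Cyp17a1 were at 0 in most embryos of the study, and the sums were 1.30 to 6.94 and 1.60 to 36.3. The remaining lists had few calls. No stromal gene of 2 tested differed by sex, Dcn led with 1.26 and 3.53, Tcf21 was mostly at 0, and the sums were 0.207 to 23.0 and 0.156 to 73.5. Of 2 endothelial genes tested, Pecam1, which germ cells also express, was higher in females at 32.8 and 23.6, Kdr and Emcn were mostly at 0, and the sums were 23.3 to 66.4 and 20.3 to 50.1. No erythroid gene of 2 tested differed, and Hba-a1 had a median of 0.648 in females and 0.374 in males, with single embryos far above, up to 2378, while Hbb-y was mostly at 0. No macrophage gene of 5 tested differed, C1qb led with 5.15 and 4.03, and the sums were 1.502 to 25.4 and 1.23 to 24.9. In sorted bulk libraries, fewer cells of a type and less RNA per cell cannot be told apart. The part of these other cells in the results on the p53 genes was not tested.

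Per kilobase of exon, Cdkn1a had the highest median level in vehicle females, at 15.2 normalized counts per kilobase. Mdm2 followed at 13.1, Ccng1 at 11.5, Trp53inp1 at 9.87, Trp53 at 9.07, Gadd45a at 8.23 and Phlda3 at 6.62, each overlapping its neighbour in range. Ei24 at 2.06 and Sesn2 at 0.652 were each below the gene before them in all 17 vehicle females, with no overlap of the ranges, and Zmat3 was lowest at 0.246. In vehicle males Trp53 came first, at 20.2 per kilobase, above Ccng1 at 12.8 in 15 of 17 embryos, and then Mdm2 at 11.9, Cdkn1a at 10.7, Trp53inp1 at 7.85, Phlda3 at 7.20, Ei24 at 2.01, Gadd45a at 1.68, Sesn2 at 1.16 and Zmat3 at 0.252, all neighbours overlapping. Gadd45a stood sixth in females and eighth in males.

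The first comparison asked how these genes differ between female and male germ cells without exposure. Of the 10 genes, 3 were higher in the 17 vehicle females and 2 were higher in the 17 vehicle males, at a Benjamini-Hochberg adjusted p under 0.05 by limma over 13288 genes. Sex differences were common throughout: 28.6% of all genes tested were higher in females and 27.9% were higher in males, so these counts are near the background. Gadd45a, Cdkn1a and Trp53inp1 were the genes higher in females, and Trp53 and Sesn2 those higher in males. Mdm2, Ccng1, Phlda3, Ei24 and Zmat3 were not called, with log2 differences between -0.06 and 0.13.

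Gadd45a encodes a small stress-response protein that binds PCNA and Cdk1 and takes part in growth arrest and repair. Its normalized count ran from 12.4 to 19.3 in vehicle females, with a median of 14.5. In vehicle males it ran from 0.920 to 9.23, with a median of 2.96. Every vehicle male was below every vehicle female, which held for 2.24% of the genes tested. The difference was 4.55-fold, a log2 difference (males minus females) of -2.19 ± 0.17 (SE), adjusted p = 1.08e-21. It was called in each generation taken alone, at a log2 difference of -1.91 in F1, -2.17 in F2 and -2.43 in F3. Over all embryos, exposed ones included, the 48 females ran from 10.9 to 19.98 and the 53 males from 0.785 to 10.3, again with no overlap, as for 0.233% of genes. The highest male was D1390.5, and without it the highest male value was 9.23. No gene of the 10 was higher in every male than in every female, in vehicle embryos (2.21% of genes) or in all embryos (0.399%). The transcript E230016M11Rik is annotated on the opposite strand across the start of Gadd45a and was also lower in males, at 6.02 to 9.88 in vehicle females and 0.146 to 3.77 in vehicle males. No strand setting is given for the counting, so reads of the overlap cannot be told apart.

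Cdkn1a, the inhibitor of cyclin-dependent kinases known as p21, ran from 37.1 to 76.6 in vehicle females, with a median of 54.0, and from 20.8 to 64.5 in vehicle males, with a median of 38.0. The sexes overlapped over much of their range. The log2 difference was -0.44 ± 0.14 (SE), or 1.35-fold higher in females, adjusted p = 0.00416. Among 15 dams with both a vehicle daughter and a vehicle son, Cdkn1a was higher in the sister in 13.

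Trp53inp1 encodes a protein that helps p53 to induce cell death and autophagy. It ran from 53.4 to 102.5 in vehicle females, with a median of 63.9, and from 36.7 to 132 in vehicle males, with a median of 50.8. The highest value of all belonged to a male, the F3 embryo D3402.3, and the sexes overlapped. The log2 difference was -0.23 ± 0.10 (SE), with an adjusted p of 0.0486 that lay close to the threshold. The call was lost in 7 of 13 other settings, with adjusted p up to 0.117, and on leaving out any 1 of 19 of the 34 vehicle embryos; with the dam as a fixed block the adjusted p was 0.0510 and as a random block 0.0162. The sister was higher in 13 of 15 dams.

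Trp53 itself ran from 15.0 to 137 in vehicle females, with a median of 36.7, and from 42.0 to 135 in vehicle males, with a median of 81.6. Most females lay below the male median, but the F2 female D3133.2 had 137, above every vehicle male. The log2 difference was 0.85 ± 0.22 (SE), or 1.80-fold higher in males, adjusted p = 0.000761. In the 15 dams with both sexes, Trp53 was higher in the brother in 14. Trp53 has a processed pseudogene, Trp53-ps, on chromosome 17, and how the counting treated reads that match both is not given, so its level is uncertain by that share.

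Sesn2, a stress-induced protein that lowers mTORC1 signalling, ran from 1.27 to 3.47 in vehicle females, with a median of 2.27, and from 1.17 to 8.13 in vehicle males, with a median of 4.03. The lowest vehicle male, D3402.3, lay under the lowest female, and most other males lay above the highest female. The log2 difference was 0.66 ± 0.17 (SE), or 1.58-fold higher in males, adjusted p = 0.000471, and the brother was higher in 14 of 15 dams.

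Fewer calls were made within single generations. In F1 and F3, 1 of the 10 genes was called, Gadd45a, where 23.8% and 32.2% of all genes were called in either direction. In F2, 4 were called, Trp53, Cdkn1a, Sesn2 and Gadd45a, against 41.1% of all genes. The direction of these 4 genes was the same in F1, F2 and F3, with Trp53 at a log2 difference of 0.93, 0.96 and 0.66 and Cdkn1a at -0.40, -0.52 and -0.38.

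**Figure D1:**
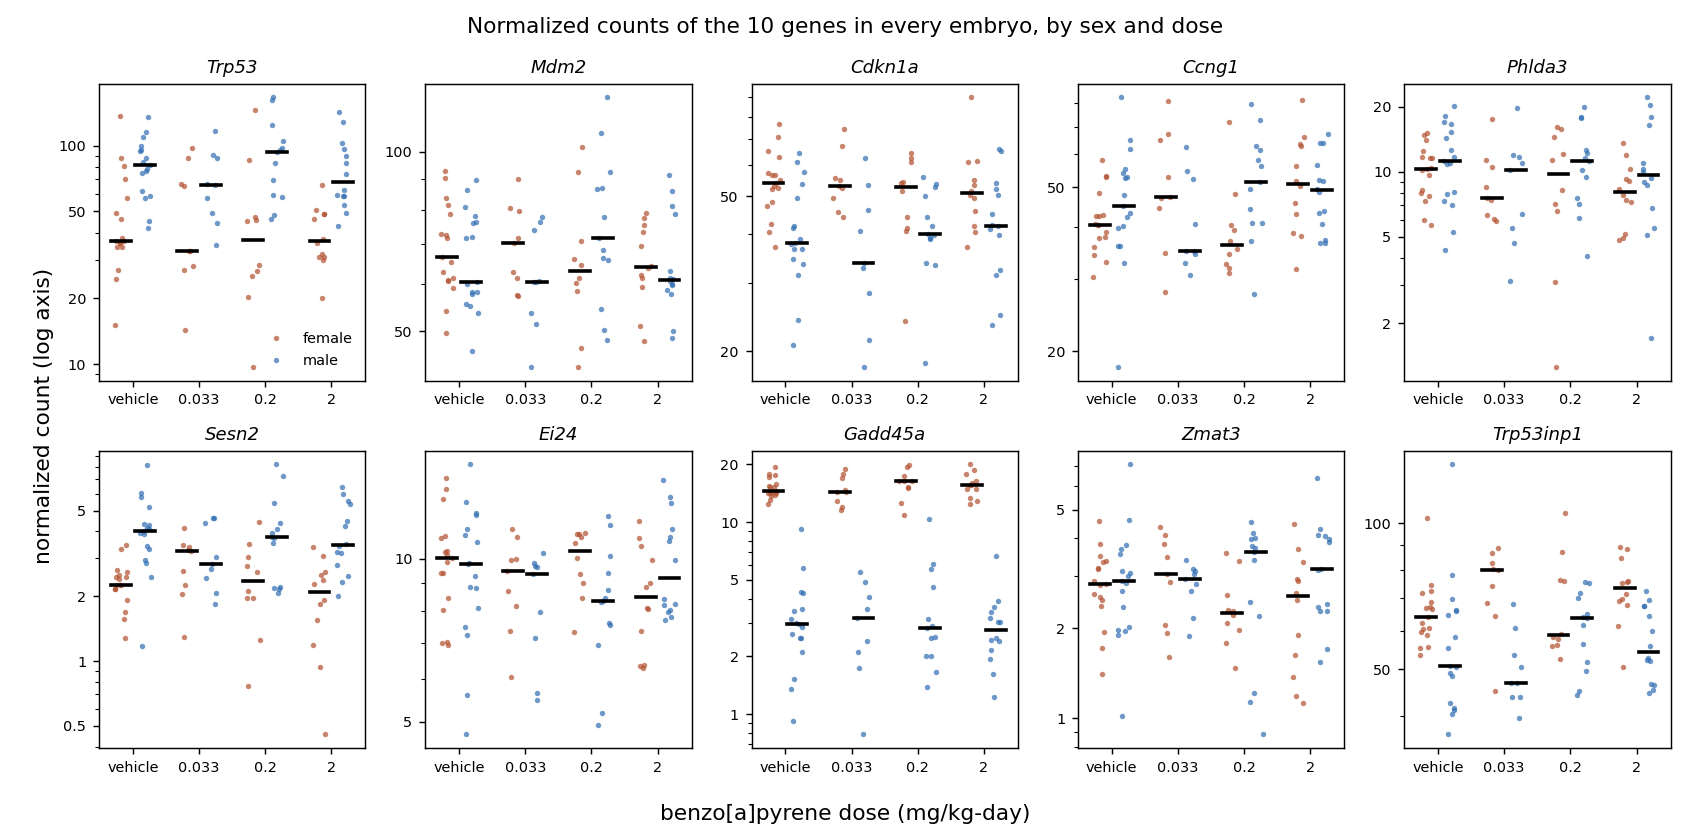
Normalized count (log axis) of each of the 10 genes against the dose of benzo[a]pyrene in mg/kg-day; each point is 1 embryo, generations combined, females in brown and males in blue, and black bars are medians. Gadd45a separates the sexes at every dose, with females at 10.9 to 19.98 and males at 0.785 to 10.3, whereas the doses overlap within each sex for every gene.

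Other genes of the pathway were read from 4 lists. The share of all genes was 27.9% higher in males and 28.6% higher in females, and most counts in these lists are near or below it. Of 19 regulators of p53, 4 were higher in males and 3 in females. Atr and Chek1, kinases of the replication stress response, were higher in females by 1.86-fold and 1.75-fold. Trp63, a p53 relative that guards oocytes, was 2.68-fold and Trp53bp1 1.30-fold higher in males. Trp63 was near the floor, with a median of 0.270 in vehicle females and 1.74 in vehicle males. Of 8 other targets in cell cycle arrest, Sfn (3.65-fold), Btg2 (2.73-fold) and Plk3 (2.47-fold) were higher in males and Gadd45b, a relative of Gadd45a, was 1.73-fold higher in females. Of 12 targets in cell death, 11 were tested, and 3 were higher in males and 2 in females. Pmaip1, whose product Noxa opposes survival proteins of the Bcl2 family, had a median of 0.621 in vehicle females and 85.9 in vehicle males, a 76.4-fold difference. Bax, a pore-forming death protein, was 1.81-fold and Aen 1.70-fold higher in males, and Perp was 3.81-fold higher in females. Of 15 targets in repair and metabolism, 5 were higher in each sex: the repair genes Ercc5 (2.12-fold) and Ddb2 (2.16-fold) in females, and Pml (2.06-fold) in males, with Sesn1, a relative of Sesn2, 1.86-fold higher in females. So within the Sesn pair the direction by sex was opposite.

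The next comparison was between exposed and vehicle embryos. Each of the 3 doses was set against the vehicle embryos of the same sex and generation, 18 contrasts in all, and the 3 doses of a group share their vehicle embryos. None of the 180 gene-by-contrast pairs was called by limma. Of all gene tests in these contrasts 0.00836% were called, with calls only in F1 females at 2 mg/kg-day (0.00733% of genes) and F2 males at 0.2 mg/kg-day (0.145%) and 0 in the other contrasts. At an unadjusted p under 0.05, 5 of the 180 pairs passed, against 5.1% of all gene tests. The count of calls was also 0 by the edgeR likelihood ratio test, the edgeR quasi-likelihood test and DESeq2 on recovered reads, by which 6, 5 and 6 pairs passed unadjusted. The log2 differences lay between -0.85 and 1.16, 77 of 180 were above 0, and in 138 of 180 the 95% interval excluded a change of 2-fold in either direction.

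The direct exposure of F1 embryos to the highest dose was looked at gene by gene. In F1 females, Trp53 had 15.0, 34.3, 34.4, 49.0 and 70.3 in the 5 vehicle embryos and 29.8, 35.9, 48.6, 50.6 and 65.7 at 2 mg/kg-day. The exposed values fell inside the vehicle range, and the log2 difference was 0.29 (95% interval -0.42 to 1.01). Leaving out 1 embryo gave -0.015 to 0.53. In F1 males, Trp53 had 45.2, 57.4, 77.7, 84.1 and 94.3 in vehicle embryos and ran from 48.9 to 103.197 with a median of 78.9 in the 8 exposed embryos. Here too the groups overlapped, at a log2 difference of 0.11 (-0.53 to 0.76), and leaving out 1 embryo gave -0.039 to 0.22.

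Cdkn1a, often the most responsive p53 target, had 37.1, 47.2, 52.4, 53.1 and 56.8 in vehicle F1 females and 36.9, 42.0, 61.3, 61.6 and 89.8 at 2 mg/kg-day. The embryo with 89.8 was the highest of all embryos, but 2 of its 4 companions were below most vehicle embryos, and the log2 difference was 0.18 (-0.34 to 0.71). Those 2, with 36.9 and 42.0, are deep libraries with Sertoli gene sums of 70.2 and 114, against 17.6 to 38.5 in the other 3. These 3 were above every F1 vehicle female in Cdkn1a. The deep vehicle female C4232.9, with 47.2 of Cdkn1a, had a Sertoli gene sum of 31.2. The part of depth or of other cells in these values was not tested. Without the deep libraries the log2 difference was 0.50, adjusted p = 0.858. With those libraries kept, leaving out 1 embryo gave 0.01 to 0.33. In F1 males Cdkn1a had 24.0, 31.3, 38.0, 38.9 and 61.1 in vehicle embryos and ran from 24.8 to 65.3 with a median of 47.6 in exposed ones, a log2 difference of 0.29 (-0.19 to 0.76). Leaving out 1 male gave 0.13 to 0.47.

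Mdm2, the feedback inhibitor, had 60.6, 60.9, 65.3, 72.7 and 83.7 in vehicle F1 females and 48.3, 51.0, 62.2, 63.9 and 78.9 at 2 mg/kg-day. Its log2 difference was -0.18 (-0.59 to 0.23). In F1 males it had 55.1, 57.8, 60.0, 60.6 and 71.8 in vehicle embryos and ran from 48.8 to 85.8 with a median of 61.1 in exposed ones, a log2 difference of 0.04 (-0.33 to 0.41). The exposed males spread on both sides of the vehicle range.

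Ccng1, which encodes cyclin G1 and recruits a phosphatase to Mdm2, had 30.2, 37.8, 42.5, 52.9 and 58.0 in vehicle F1 females and 43.0, 56.1, 63.0, 63.4 and 66.1 at 2 mg/kg-day. Of the 5 exposed females 3 were above every vehicle female, 2 of them the deep libraries with 63.4 and 66.1, at a log2 difference of 0.42 (-0.07 to 0.90), adjusted p = 0.5679. In F1 males Ccng1 had 18.3, 39.8, 47.8, 53.02 and 61.8 in vehicle embryos and ran from 37.2 to 67.3 with a median of 50.6 in exposed ones, a log2 difference of 0.30 (-0.14 to 0.74), which leaving out 1 embryo lowered to as little as 0.01. These differences did not pass the adjusted threshold.

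**Figure D2:**
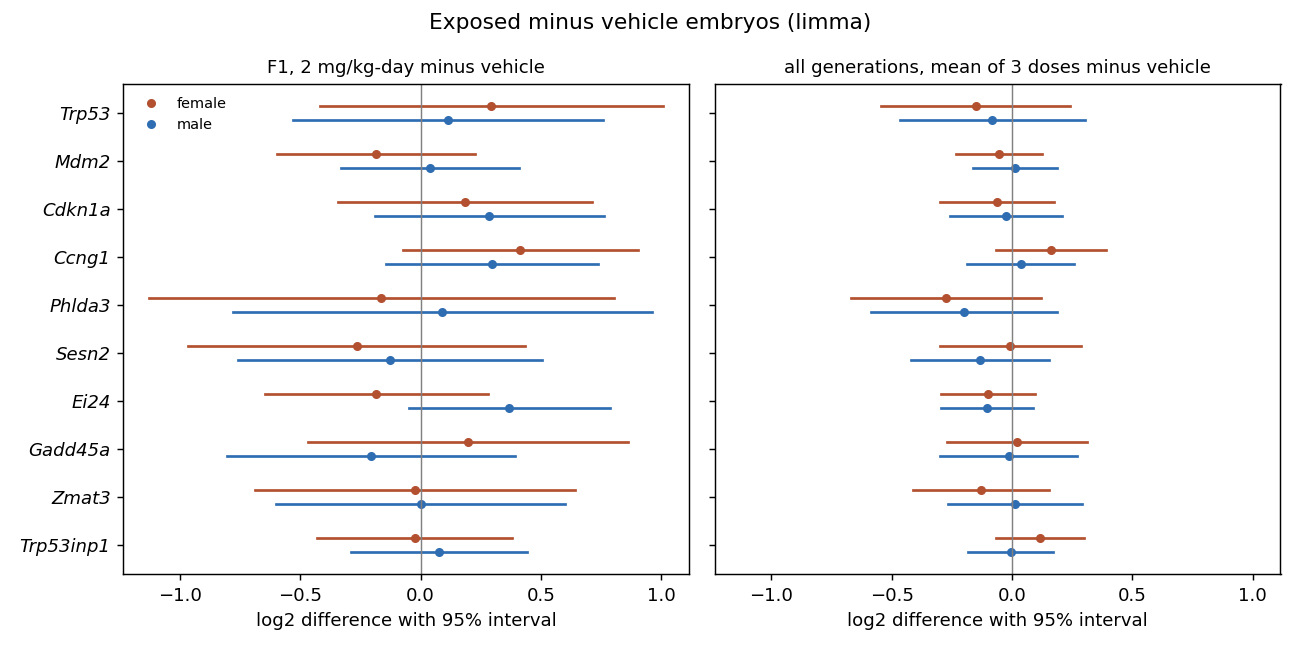
Log2 difference between exposed and vehicle embryos for the 10 genes (points) with 95% intervals from limma (lines), females in brown and males in blue; left, F1 at 2 mg/kg-day; right, the mean of the 3 doses over all generations. In the right panel all intervals lie between -0.67 and 0.39 and include 0.

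The 5 pairs with an unadjusted p under 0.05 were spread over 3 contrasts and all were higher in exposed embryos. In F3 males at 0.2 mg/kg-day, 3 of the 10 genes passed that threshold, where 10.6% of all genes did. Zmat3, an RNA-binding protein, had 3.59, 4.002, 4.16 and 4.54 in exposed males and 1.02 to 3.80 with a median of 2.68 in the 6 vehicle males, a log2 difference of 0.66, adjusted p = 0.395. Only the lowest exposed male lay inside the vehicle range. Mdm2 had 77.7, 86.7, 92.7 and 107 in exposed and 46.4 to 86.5 with a median of 75.0 in vehicle males, a log2 difference of 0.39, adjusted p = 0.395. Gadd45a had 1.39, 4.57, 5.72 and 10.3 in exposed and 1.35 to 3.43 with a median of 2.66 in vehicle males, a log2 difference of 0.77, adjusted p = 0.418. The values of 5.72 and 10.3 belong to brothers, the second being D1390.5, so the 4 exposed males come from 3 dams, and the contrast treats the brothers as independent. Without that embryo the log2 difference was 0.40 for Gadd45a and 0.38 for Mdm2, neither of which then passed the unadjusted threshold, and 0.71 for Zmat3, which still did. Zmat3 itself no longer passed on leaving out any 1 of 4 other embryos. Without the low male D1464.2 the difference of Gadd45a was 1.25, adjusted p = 0.0483, the only setting in which a gene of the 10 was called in a dose contrast. That setting kept both brothers, D1390.5 among them.

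In F3 females at 0.2 mg/kg-day, 1 gene passed the unadjusted threshold, where 12.8% of all genes did. Trp53 had 86.0 and 145 in the 2 exposed females and 27.0 to 87.6 with a median of 47.7 in the 6 vehicle females, a log2 difference of 1.16, adjusted p = 0.364. Without the higher of these 2 females the difference was 0.79 and did not pass. Nor did it pass without the vehicle female D1388.3, D3402.1 or D3651.2, each left out in turn. Both exposed females stood apart in other genes, with Stra8 at 35.7 and 40.7, below the 62.9 to 620 of the vehicle females, and sums of male fate genes of 4.73 and 7.66, above their 0.113 to 0.613. In F2 females at 0.033 mg/kg-day, 1 gene passed, where 3.39% did. Trp53inp1 had 80.6, 82.7 and 88.8 in the 3 exposed females and 60.5 to 71.7 with a median of 66.9 in the 6 vehicle females, a log2 difference of 0.34. Erythroid gene sums of the same 3 females also lay above those of the 6 vehicle females, the highest of which came close. These Trp53inp1 values did not overlap, but the adjusted p was 1, and leaving out any 1 of the 3 exposed females or of 2 vehicle females put the pair outside the unadjusted threshold.

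With the generations combined, 0 of the 10 genes were called for the mean of the 3 doses in females or in males, and 0 at an unadjusted p under 0.05, where 8.67% of all genes passed in females and 1.14% in males. In the 31 exposed females the log2 differences lay between -0.27 and 0.16 and in the 36 exposed males between -0.20 and 0.04. At 2 mg/kg-day alone, females of all generations had 1.36% of all genes called but none of the 10, and at an unadjusted p under 0.05, 23.3% of all genes and 1 of the 10, Ccng1, passed. Ccng1 had a log2 difference of 0.30 there (0.01 to 0.58), adjusted p = 0.189, and no longer passed the unadjusted threshold without the deep libraries or on leaving out any 1 of 9 of the 29 embryos. Of 7 germ cell genes, 1 was called in the same contrast, Dppa3, higher at a log2 difference of 0.51, adjusted p = 0.0481, a call also lost without the deep libraries. The count of the 10 called was 0 by each of the edgeR tests and DESeq2 as well. Of the pathway lists, no gene was called in the 18 contrasts, and Trp53i13 was lower in females at 2 mg/kg-day, at a log2 difference of -0.78, adjusted p = 0.0481, a call lost without the deep libraries, where no gene at all was called.

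Whether exposure acted differently in males and females was tested directly. None of the 10 differed in this way for the mean of all doses or in F1 at 2 mg/kg-day, with 0 at an unadjusted p under 0.05, where 1.96% and 4.37% of all genes passed. The 3 generations of vehicle embryos were also compared by limma. None of the 10 differed between them in either sex, with 0 at an unadjusted p under 0.05, where 1.56% of all genes passed in females and 4.02% in males. Ei24, an endoplasmic reticulum protein linked to autophagy, came nearest, in males, at an adjusted p of 0.9999.

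The last comparison asked whether the 10 genes vary together from embryo to embryo within a sex, once the mean of each generation and dose group was removed. There were 45 pairs in each of 48 females and 53 males, and 27 of the 90 correlations had an adjusted permutation p under 0.05 by Pearson's r, 26 by Spearman's rho and 24 by both. Of the 45 pairs, 12 in females and 15 in males were called, and 28.4% and 25.0% of all pairs of the genes tested had an r at least as far from 0 as the weakest of these, so the count is near the background. The permutations moved embryos freely across groups and did not allow for the group means removed. The p-values of these correlations, and of those with marker lists below, are therefore somewhat too small. The 48 females came from 48 dams and the 53 males from 50. The deep libraries, 5 female and 6 male, were too few for a value of their own, so r is also given without them.

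Trp53 correlated with Cdkn1a in both sexes. In females r was 0.60 and rho 0.63, each with p = 1e-05, the smallest these permutations can give, and adjusted p = 0.000129 and 0.00018. Without the 2 embryos most extreme in Trp53 r was 0.60, and without the deep libraries 0.53. In males r was 0.74 and rho 0.73, both at p = 1e-05 with the same adjusted values, and r was 0.75 without the 2 extremes and 0.73 without the deep libraries. Embryos with more Trp53 transcript thus had more Cdkn1a transcript, although Trp53 was higher in males and Cdkn1a in females. The relation held in each generation, with r between 0.59 and 0.72 in females and between 0.61 and 0.83 in males.

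Trp53 also correlated with Mdm2, at r = 0.56 in females (rho 0.52, p = 8e-05 and 0.00024, adjusted p = 0.000655 and 0.00166) and r = 0.56 in males (rho 0.52, p = 2e-05 and 0.00011, adjusted p = 0.0002 and 0.00099). Without the 2 extremes r was 0.52 and 0.45, and without the deep libraries 0.51 and 0.53. Phlda3, which restrains the kinase Akt, followed Trp53 in males at r = 0.64 (rho 0.69, both p = 1e-05, adjusted p = 0.000129 and 0.00018), with 0.60 without the 2 extremes and 0.75 without the deep libraries. Within generations that male relation ran from 0.30 in F1 to 0.92 in F2. Sesn2 followed Trp53 in males at r = 0.62 (rho 0.57, p = 1e-05 and 2e-05, adjusted p = 0.000129 and 0.000257), with 0.58 without the 2 extremes and 0.62 without the deep libraries.

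Other relations of Trp53 in females were weaker or rested on some libraries. With Phlda3 r was 0.43 (rho 0.45, p = 0.00242 and 0.00139, adjusted p = 0.0111 and 0.00736), with 0.39 without the 2 extremes and 0.43 without the deep libraries. With Sesn2 r was 0.50 (rho 0.55, p = 0.00024 and 8e-05, adjusted p = 0.00154 and 0.0008), with 0.53 without the 2 extremes, and 0.34 without the deep libraries, where it was no longer called. Trp53inp1 ran against Trp53, at r = -0.47 (rho -0.41, p = 0.00093 and 0.00415, adjusted p = 0.00523 and 0.0178), with -0.51 without the 2 extremes, and -0.23 without the deep libraries, where the call was also lost. Trp53 with Ccng1 was called by r but not by rho, at 0.37 and 0.27 (p = 0.00924 and 0.0592, adjusted p = 0.0365 and 0.148). Its r was 0.22 without the 2 extremes and 0.54 without the deep libraries, and -0.09 in F1, 0.64 in F2 and 0.55 in F3.

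Trp53inp1 and Ccng1 correlated with each other in males at r = 0.72 (rho 0.73, both p = 1e-05, adjusted p = 0.000129 and 0.00018), with 0.71 without the 2 extremes and 0.72 without the deep libraries. Trp53inp1 ran against Sesn2 in females, at r = -0.60 (rho -0.60, both p = 2e-05, adjusted p = 0.0002 and 0.000257), with -0.59 without the 2 extremes and -0.43 without the deep libraries. The relation of Cdkn1a with Sesn2 in females, r = 0.54 (rho 0.45, p = 0.00014 and 0.0015, adjusted p = 0.000969 and 0.0075; 0.41 without the 2 extremes), fell to 0.15 without the deep libraries and was 0.81 in F1, 0.12 in F2 and -0.02 in F3. It rests on the deep F1 libraries. Ei24 and Zmat3 were each in 2 of the 27 pairs, and Gadd45a in none. Without the deep libraries 8 of the 27 pairs lost their call.

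**Figure D3:**
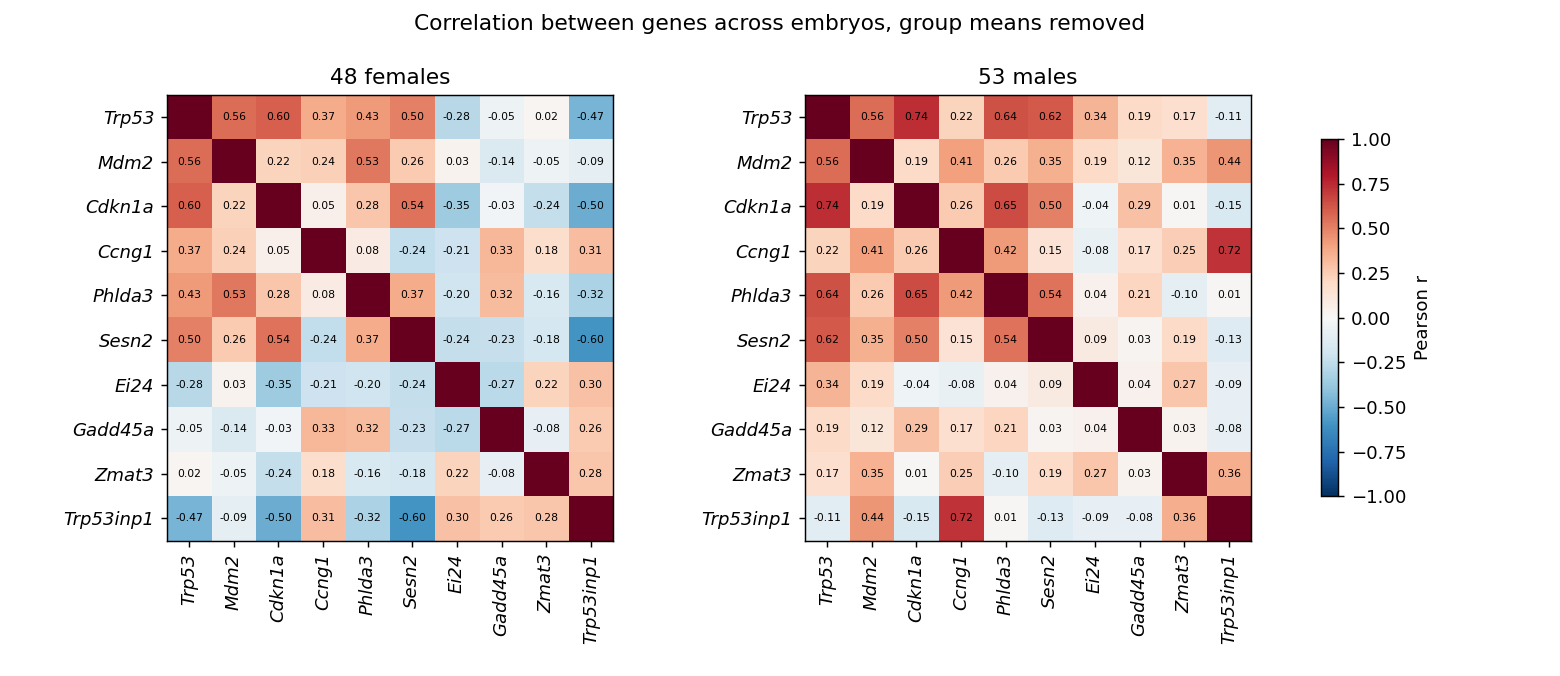
Pearson's r between the 10 genes across 48 females (left) and 53 males (right), each value a log2 normalized count minus its group mean; red is positive and blue negative. Trp53 with Cdkn1a stands at 0.60 and 0.74, and Ccng1 with Trp53inp1 at 0.72 in males.

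These correlations are not particular to p53 targets. By the mean rho of the sexes, the 4 genes most like Trp53 among 13287 were Bysl, Ckb, Ccnd3 and Rrp9, each at 0.92. Cdkn1a, at 0.68, was exceeded by 635 genes, or 4.78% of them, Mdm2 by 12.6% and Ccng1 by 27.8%. The genes most like Cdkn1a were Nmral1, Bad, Tkt, Grhpr and Gm16517, at a mean rho of 0.76 to 0.72. Those most like Mdm2 were Cse1l, Wdr36, Ddx20, Map2k4 and Abce1, at 0.82 to 0.79, and those most like Ccng1 were Chmp4c, Socs2, Fbxo5, Lactb2 and Gca, at 0.76 to 0.74.

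The 10 genes were also set against the mean of each marker list, a step added after the data were seen, giving 200 relations, of which 41 had an adjusted permutation p under 0.05. These were 21 of 100 in females and 20 of 100 in males, where 22.4% and 15.4% of the relations of all genes with these lists were at least as strong as the weakest called. Trp53 ran against the meiosis genes in females, at r = -0.76 (rho -0.75, both p = 1e-05, adjusted p = 0.000182 and 0.000222), with -0.77 without the 2 extremes and -0.79 without the deep libraries. In males it did so at r = -0.48 (rho -0.50, p = 0.00026 and 0.00015, adjusted p = 0.0026 and 0.00176), with -0.56 and -0.59. Females with less meiosis transcript thus had more Trp53 transcript. Trp53 rose with the 2 tested genes of the endothelial list, Pecam1 and Egfl7. Its r was 0.74 in females (rho 0.80, both p = 1e-05, adjusted p = 0.000182 and 0.000222) and 0.84 in males (rho 0.80, the same p). Without the 2 extremes r was 0.81 and 0.81, and without the deep libraries 0.72 and 0.85. Germ cells also express Pecam1, and Kdr and Emcn of this list were mostly at 0, so this mean does not measure endothelial cells alone. Ccng1 rose with the germ cell genes in females, at r = 0.78 (rho 0.68, p = 1e-05 and 2e-05, adjusted p = 0.000182 and 0.0004), with 0.69 without the 2 extremes and 0.82 without the deep libraries. In males this relation was not called, at r = 0.31 (adjusted p = 0.0894). Trp53 went opposite ways with the germ cell genes. Its r was 0.41 in females (adjusted p = 0.0258, but 0.138 by rho) and -0.50 in males (adjusted p = 0.00211). Trp53, Cdkn1a and Sesn2 ran against the Sertoli genes in females, at r = -0.48, -0.61 and -0.68 (adjusted p = 0.00554, 0.000308 and 0.000182). Without the deep libraries r was -0.40, -0.39 and -0.50. Trp53inp1 rose with the Sertoli genes in females, at r = 0.41 (adjusted p = 0.0218), with 0.19 without the deep libraries. In vehicle females Sox9, Amh, Dhh and Cst9 of this list had a median of 0 and Ptgds 0.268, while Aard stood at 18.9. The female list mean thus joins Aard with genes near the floor. In males these Sertoli relations were not called. The part of cell makeup or developmental stage in these correlations was not tested.

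Promoter sequences from RefSeq (GRCm38.p6, 250 bases before to 50 after each start) were found for 8 of the 10 genes, in 9 windows, since these genes share a regulator that binds a known motif. The p53 decamer, which reads alike on both strands, was found in 6 of the 9 windows and in 8.36% of 32851 promoters. A pair of adjoining decamers with at most 1 mismatch was found in 22 promoters, or 0.067%, and 2 of these were windows of Cdkn1a and Ccng1. The genes whose known binding sites lie further away or in introns cannot show them in these windows. The stretches of Cdkn1a and Ccng1 are shown for these paired motifs, and that of Gadd45a because it differed most between the sexes; capitals mark the motif. Cdkn1a lies at chr17:29090976-29100727 on the plus strand, and its stretch at chr17:29090908-29090967 is upstream of the gene. Ccng1 lies at chr11:40748552-40755311 on the minus strand with its stretch at chr11:40755442-40755501, and Gadd45a at chr6:67035096-67037457 on the minus strand with its stretch at chr6:67037408-67037467, which spans the gene's annotated start.
Cdkn1a: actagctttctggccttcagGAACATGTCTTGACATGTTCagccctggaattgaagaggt
Ccng1: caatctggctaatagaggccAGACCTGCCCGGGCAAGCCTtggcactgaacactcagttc
Gadd45a: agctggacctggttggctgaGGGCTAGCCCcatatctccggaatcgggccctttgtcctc
The pair in Cdkn1a starts 51 bases before the transcription start of 1 of its 2 windows, the other window holding no decamer, and that in Ccng1 195 bases before it, while Gadd45a holds a single decamer. A match is a description of the letters and not evidence of binding.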

How the data were processed

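The authors trimmed paired reads with Trim Galore, aligned them with STAR to mm10 (GRCm38), counted them per gene with Rsubread and scaled them by TMM in edgeR. The deposited values are normalized counts (a signal that need not be whole). From them, log2(value + 0.5) was tested with limma 3.58.1 in R 4.3.3 (moderated statistics with a trend, 2-sided, Benjamini-Hochberg adjustment) for genes with a mean of at least 0.5, so fold changes of low genes are understated. All embryos in 8 sex-by-dose groups shared a fit for the sexes and combined doses; each generation had its own fit for its doses. Whole reads were recovered in 99 libraries, where 100% of values up to 1000 reads were whole within 0.05, for edgeR 4.0.16 and DESeq2 1.42.0 as alternatives; by the edgeR likelihood ratio test 7466 genes differed by sex, by limma 7502. Correlations used 100000 permutations, 2-sided, with numpy 2.4.6 and scipy 1.17.1 in Python 3.11.15; figures used matplotlib 3.10.9. The shares of all gene pairs were added after the data were seen. Scripts were tested on simulated data.

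All 10 genes are given by sex, and by value, range or count elsewhere, where of the correlations only some pairs are printed; in dose contrasts those with an unadjusted p under 0.05 and always Trp53, Cdkn1a, Mdm2 and Ccng1 in F1 at 2 mg/kg-day; from pathway lists up to 4 called genes with the smallest p; the 4 or 5 genes most like each of those 4; and the most abundant gene of each marker list. Marker lists were germ cell, Sertoli, pregranulosa, fetal Leydig, stroma, endothelial, erythroid, macrophage, meiosis and male fate. The members and lists were chosen with earlier results of these data known. Gene positions and exon lengths are from GENCODE vM21.

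The part of each embryo number before the point was taken to name the dam, so brothers and sisters are paired by dam: deviations from the group means correlated at a median r of 0.218 in 43 brother and sister pairs and -0.0541 in 191 pairs of other dams. No 2 libraries of a group agreed within sampling noise (lowest chi-square per degree of freedom 5.86 in 184 pairs).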

Additional observations from a re-analysis of the deposited data

Results flagged for a closer look

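In groups of 4 to 8 embryos, 7 of 140 gene-by-group sets held an embryo far from the rest of its group by Dixon's test at 95%. Chance flags about 1 in 20 groups, which is the share seen here (5%), so no explanation was sought. Trp53 was 161.9 in the F1 male D1190.1 at 0.2 mg/kg-day, where the other 5 ranged from 46.3 to 82.9, and the same embryo had 6.04 of Gadd45a against 1.66 to 3.12. Gadd45a was 6.66 in the F1 male D2593.1 at 2 mg/kg-day, against 1.63 to 3.62. Trp53 was 136.8 in the F2 vehicle female D3133.2, against 24.4 to 46.2, and 166.6 in the F3 male D4021.2 at 0.2 mg/kg-day, against 94.9 to 105. Cdkn1a was 53.7 in embryo D1390.5, the library that went against its sex label in part, against 39.0 to 40.02 in the 3 other F3 males of that dose. Trp53inp1 was 132.3 in the F3 vehicle male D3402.3, against 36.7 to 58.4. No difference of effect between the sexes was found by its test.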

How the results depend on the processing

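Of 445 values under 18 other settings, 426 kept their direction and their side of the threshold. The calls of Trp53, Cdkn1a and Gadd45a by sex held in all 13 other settings, and that of Sesn2 in the 12 in which it was tested, at log2 differences of 0.70 to 0.88, -0.48 to -0.42, -2.35 to -2.02 and 0.58 to 0.85. With a minimum mean of 5, 1 gene was higher in males in place of 2, because Sesn2 was no longer tested. Trp53inp1 kept its call in 6 of 13. The difference of Ei24 by sex, which was not called, changed sign to 0.0049 without the deep libraries. That of Zmat3, not called, became -0.038 without the deep libraries, -0.0012 with the dam as a random replicate block and -0.080 with it as a fixed block; the block changed no call but that of Trp53inp1. Leaving out embryos in turn gave 2 to 3 genes higher in females, 0 to 1 calls over the 18 dose contrasts, -0.051 to 0.094 for Zmat3 by sex, and, in F1 at 2 mg/kg-day, -0.015 to 0.53 for Trp53 in females, -0.039 to 0.22 for Trp53 in males, -0.28 to -0.11 for Mdm2 in females, -0.025 to 0.10 for Mdm2 in males, 0.01 to 0.33 and 0.13 to 0.47 for Cdkn1a in females and males, and 0.29 to 0.52 and 0.01 to 0.44 for Ccng1 in females and males; the cause was not tested. Called correlations numbered 27, and 25 without the deep libraries (19 of them among the 27), 29 with library means removed and 27 without D1390.5, a setting added after the data were seen.

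The number of all genes called depended on the setting: in females at 2 mg/kg-day 181 were called, but 0 without the deep libraries, 1 with generation as a term and 961 with the compared groups fitted alone, and over the 18 dose contrasts 20, but 192 by the edgeR likelihood ratio test, 153 by DESeq2 and 2 with the compared groups alone. By sex, 7502 genes were called and 4758 with a minimum mean of 5, where fewer were tested.

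Groups of 2 to 8 embryos limit each dose contrast, where 42 of 180 intervals still include a 2-fold change. Sesn2, Zmat3 and Gadd45a rest on few reads. Protein was not measured.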
